A study of Mus musculus with 10 samples.

Results

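Homeobox genes of the Hox family were examined in mouse keratinocytes, the epithelial cells of the epidermis, that lacked or kept the small GTPase RhoA, a regulator of the actin cytoskeleton. The members were all probe sets (groups of short array probes for 1 transcript) whose platform annotation gives a single gene symbol made of Hoxa, Hoxb, Hoxc or Hoxd and a number. This gave 48 probe sets for 33 genes, of 45037 probe sets on the array. Cells came either fresh from the epidermis, or from primary culture. RhoA-KO cells carried RhoA fl/fl K5 cre, and the cells called Wildtype carried RhoA fl/+ K5 cre, so the controls also had Cre, driven by the promoter of keratin 5 (a basal keratinocyte gene), and a floxed allele. There were 2 fresh Wildtype, 2 fresh RhoA-KO, 3 cultured Wildtype and 3 cultured RhoA-KO arrays. Age, sex, strain, body site and time in culture are not in the labels. The titles speak of biological replicates but name no animal or culture, so the p-values cover only the spread seen among these arrays.

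Hox proteins are transcription factors that bind DNA through a homeodomain, often together with cofactors of the Pbx, Meis and Prep families. Their genes lie in 4 clusters, and genes at the same place in different clusters form paralogue groups, numbered from 1 to 13. In the embryo, low-numbered genes start to be active early and towards the head, and high-numbered genes late and towards the tail and the tips of the limbs. Adult skin keeps part of this pattern, above all in dermal fibroblasts, and Hoxc13 is in addition required in the hair follicle for normal hair shafts.

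The promoters shown are those of the Hox genes that had the smallest p-values between genotypes in fresh cells (unadjusted limma p under 0.05 for at least 1 probe set) and an entry in the RefSeq promoter table of build GRCm38.p6, in which 19 of the 33 genes matched. Each sequence is the 250 bases before the annotated start, 5′ to 3′ on the gene's strand, with CG dinucleotides in capitals. Hoxa2 (chr6:52164832-52165081, minus strand) held 6 CG dinucleotides. Hoxa3 (chr6:52213068-52213317, minus strand) held 18 and overlapped the span of Hoxaas3. Hoxa5 (chr6:52204588-52204837, minus strand) held 28 and overlapped the spans of Hoxa3 and Hoxaas3. Hoxb4 (chr11:96318017-96318266, plus strand) held 14 and overlapped the span of Hoxb3. Hoxc4 (chr15:103034145-103034394, plus strand) held 8 and overlapped the span of Gm30528.
Hoxa2: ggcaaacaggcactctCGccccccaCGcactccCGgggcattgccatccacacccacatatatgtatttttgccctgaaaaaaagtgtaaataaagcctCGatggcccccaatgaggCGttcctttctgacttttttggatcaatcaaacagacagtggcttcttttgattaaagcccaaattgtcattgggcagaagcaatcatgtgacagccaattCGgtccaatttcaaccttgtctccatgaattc
Hoxa3: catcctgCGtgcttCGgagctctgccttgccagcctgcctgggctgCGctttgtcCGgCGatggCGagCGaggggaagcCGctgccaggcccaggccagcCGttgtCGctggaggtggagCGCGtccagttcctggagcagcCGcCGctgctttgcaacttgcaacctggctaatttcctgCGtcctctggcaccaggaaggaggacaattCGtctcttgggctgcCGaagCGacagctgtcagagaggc
Hoxa5: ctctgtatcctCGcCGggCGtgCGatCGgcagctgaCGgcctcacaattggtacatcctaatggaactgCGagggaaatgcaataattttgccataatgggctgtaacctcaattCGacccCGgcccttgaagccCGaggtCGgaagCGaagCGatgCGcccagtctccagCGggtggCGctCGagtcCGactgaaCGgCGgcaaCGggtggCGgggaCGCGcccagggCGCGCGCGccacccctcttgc
Hoxb4: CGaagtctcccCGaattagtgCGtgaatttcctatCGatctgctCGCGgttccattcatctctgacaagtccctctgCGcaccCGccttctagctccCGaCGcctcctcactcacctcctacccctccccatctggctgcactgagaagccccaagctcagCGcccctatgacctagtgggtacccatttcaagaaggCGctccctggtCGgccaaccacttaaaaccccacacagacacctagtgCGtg
Hoxc4: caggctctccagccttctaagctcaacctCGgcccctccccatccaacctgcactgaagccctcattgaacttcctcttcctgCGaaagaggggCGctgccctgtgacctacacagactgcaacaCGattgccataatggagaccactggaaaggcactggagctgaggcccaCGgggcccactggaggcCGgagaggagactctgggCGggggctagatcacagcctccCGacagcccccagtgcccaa
The 21 promoters of the 19 genes held a median of 13 CG dinucleotides, with a range of 2 to 35, against a median of 6 over all 32851 promoters of the table, and had a median GC content of 59.2% against 52.4%. The Hox-Pbx motif TGATNNAT, searched on both strands, was in 3 of 21 (14.29%) against 7.683% of all promoters, and 1 of these was Hoxa2 (ATCAATCA). The half-site AGGTCA of retinoic acid receptors, searched in the same way, was in 5 of 21 (23.81%) against 14.02%, Hoxb4 and Hoxc4 among them. A direct repeat of this half-site spaced by 5 bases, which contains it by construction, was in 0 of 21 and in 3 of all promoters. A match is a description of these letters and not a binding site.

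Expression is given as the deposited linear intensity, made by the authors with MAS5 per the submitters' processing notes. Fresh and cultured arrays had different scales: array medians were 64.1 to 64.8 in fresh and 7.75 to 8 in cultured cells, and 53.9% to 54.3% of cultured values were below 10 against 0.102% to 0.140% of fresh values. Levels were therefore set side by side only within a condition. Levels of different probe sets are not comparable and no order of genes is given. Markers of basal and suprabasal keratinocytes were above the median on every fresh array (7 of 7 in each list) and nearly all were in culture (6 of 7 in each list). Rhoa itself did not pass the test. In culture its probe set 1450632_at was 15352, 12735 and 11512 on Wildtype and 10811, 10774 and 10199 on RhoA-KO arrays, and in fresh cells it was 1443 and 1811 on Wildtype arrays and 1945 and 1875 on arrays labelled RhoA-KO. The limma log2 differences were -0.31 (SE 0.11, adjusted p = 0.272) in culture and 0.24 (SE 0.13, adjusted p = 0.494) in fresh cells. A second Rhoa probe set, 1437628_s_at, gave -0.35 (SE 0.08, adjusted p = 0.156) in culture and 0.20 (SE 0.09, adjusted p = 0.434) in fresh cells. On both probe sets the fresh groups did not overlap and lay in the direction opposite to the labels. Where the probes lie relative to the deleted part is not given in the sources used here, so these values do not check the labels, and every direction below is that of the labels.

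The Hox genes above the array median in these keratinocytes were mostly those of the anterior and middle parts of clusters A, B and C. In fresh cells 17 of the 33 genes (25 of 48 probe sets) were above the array median on all 4 arrays, against 46.7% of all probe sets, and in cultured cells 16 genes (21 of 48 probe sets) on all 6 arrays, against 48.5%. Among probe sets with 1 symbol, as the members are, the shares were 52.8% in fresh and 55.2% in cultured cells. The Hox probe sets reached 52.1% and 43.75%. Over all genes, each by its brightest probe set, the shares were 58.5% and 58.8%, against 51.5% and 48.5% of the Hox genes. The Hox shares were thus at or below those of probe sets with 1 symbol and of all genes. In fresh cells the 52.1% was above the 46.7% of all probe sets. The pattern lies in which Hox genes were above the median. A probe set above the median is not by itself proof of expression, and one below it is not proof of absence. Of a gene's probe sets, the brightest by mean log2 value over the 10 arrays stood for it.

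The 14 genes above the median in both conditions were Hoxa2, Hoxa3, Hoxa5, Hoxa7, Hoxa9, Hoxb2, Hoxb3, Hoxb4, Hoxb6, Hoxc4, Hoxc5, Hoxc6, Hoxc8 and Hoxd8. Hoxb5, Hoxc9 and Hoxc13 were above it in fresh cells only, and Hoxa4 and Hoxb9 in cultured cells only. By cluster, 5 of 9 Hoxa genes were above the median in fresh and 6 in cultured cells, 5 of 9 Hoxb genes in both, 6 of 7 Hoxc genes in fresh and 4 in cultured cells, and 1 of 8 Hoxd genes in both, Hoxd8. By paralogue group, 4 of 7 genes of groups 1 to 3 and 12 of 16 genes of groups 4 to 9 were above it in each condition. Of the 10 genes of groups 10 to 13, 1 was above it in fresh cells, Hoxc13, and 0 in cultured cells. The 14 genes that met the rule in neither condition were Hoxa10, Hoxa11, Hoxa13, Hoxb1, Hoxb7, Hoxb13, Hoxc10, Hoxd1, Hoxd3, Hoxd9, Hoxd10, Hoxd11, Hoxd12 and Hoxd13. They include the genes known for the limb tips and tail, such as Hoxa13, Hoxd12 and Hoxb13.

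**Figure D1:**
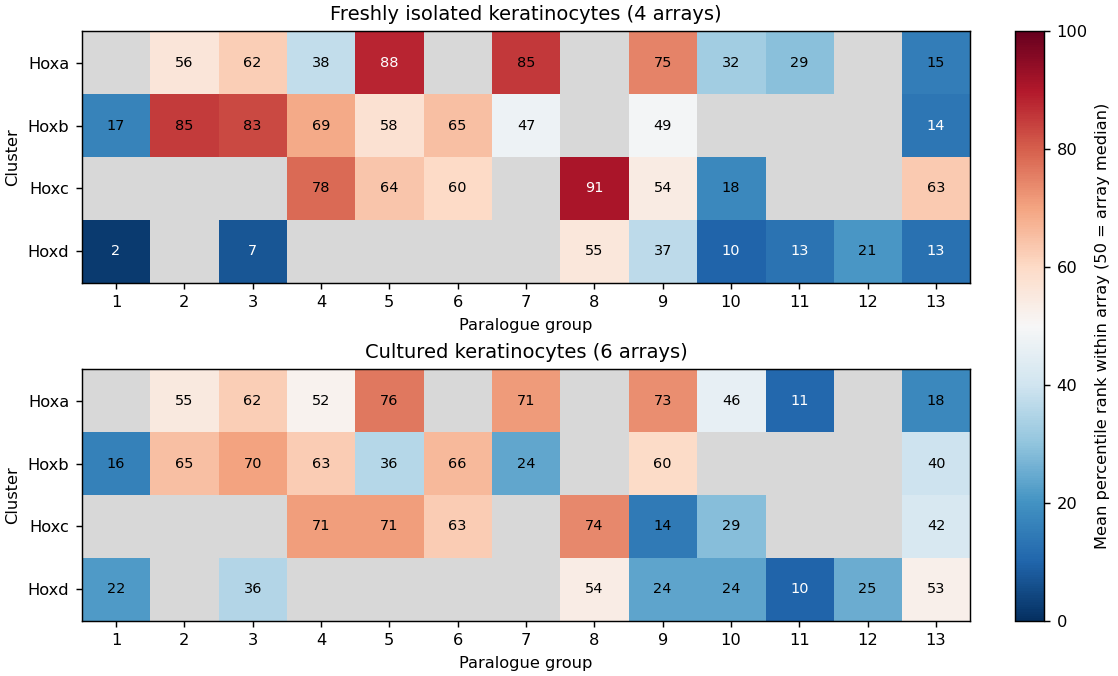
Mean percentile rank within the array of the probe set standing for each of the 33 Hox genes, by cluster (rows) and paralogue group (columns), over 4 fresh arrays (top) and 6 cultured arrays (bottom). The colour scale is centred on 50, the array median, and grey squares are genes with no member probe set. Red squares gather in groups 2 to 9 of clusters A to C in both conditions, and ranks of different genes are not a ranking of their mRNA.

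Several genes were close to the line. In fresh cells the lowest intensity was 1.01 times the array median for Hoxa2, 1.04 for Hoxb5, 1.05 for Hoxd8 and 1.07 for Hoxc9, just inside. Hoxb9 was above it on 1 of 4 arrays and Hoxb7 was at 0.873 to 0.912 times the median, just outside. In culture Hoxa2 (lowest 9.24), Hoxa4 (lowest 8.30) and Hoxd8 (lowest 9.45) were above the median but near the floor of the scale, and Hoxd13 was above it on 5 of 6 arrays. At 2 times the array median, a threshold chosen after the data were seen, 13 genes remained in culture (without Hoxa2, Hoxa4 and Hoxd8) and 8 in fresh cells, namely Hoxa5, Hoxa7, Hoxa9, Hoxb2, Hoxb3, Hoxb4, Hoxc4 and Hoxc8.

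Loss of RhoA was compared with control within each condition by limma, a linear model fitted over all probe sets with Benjamini-Hochberg adjustment. In fresh cells 0 of 25 Hox probe sets tested passed an adjusted p of 0.05, as did 0% of all 22893 probe sets. In cultured cells 0 of 23 passed, against 0.273% of 22682 (62 probe sets). No Hox gene was therefore shown to differ between the genotypes in either condition. The smallest adjusted p was 0.242 in fresh cells, for Hoxa5, and 0.284 in culture, for Hoxc5. Limits apply to the fresh count. In 1 fit over all 10 arrays, quantile normalized together so that both conditions shared 1 distribution, 7 passed. That normalization also changed the fresh log2 differences, for Hoxc5 1439885_at from 0.53 to 1.14. Without fresh RhoA-KO replicate 1 the log2 difference was -0.80 for Hoxa5 1448926_at (from -0.77) and 2.46 for Hoxc13 (from 1.28).

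Below that threshold the fresh arrays labelled RhoA-KO had lower values for most genes of clusters A and B and, in cluster C, higher values for Hoxc4 and Hoxc5. At an unadjusted limma p under 0.05 there were 5 Hox probe sets lower (Hoxa2, 1 of Hoxa3, both of Hoxa5, 1 of Hoxb4), against 6.89% of all probe sets tested, and 2 higher (Hoxc4 and 1 of Hoxc5), against 6.01%, together 7 of 25 against 12.9%. The log2 difference was below 0 for 17 of 25 probe sets, against 50.1% of all, with a median of -0.18 against 0.00. Groups did not overlap for 17 of 25, 13 lower and 4 higher, against 46.9% of all probe sets (23.5% lower and 23.5% higher). Over genes, 5 of 5 Hoxa genes were lower (median log2 difference -0.44), 4 of 5 Hoxb genes were lower (median -0.40) and 5 of 6 Hoxc genes were higher (median 0.22). Of these Hoxc genes, Hoxc8 (0.01, SE 0.13) and Hoxc9 (0.01, SE 0.18) were near 0 with overlapping groups, and Hoxc13 was high on 1 array alone. The higher values of cluster C were thus carried by Hoxc4 and Hoxc5. The 1 Hoxd gene tested, Hoxd8, was lower. These counts were the same under quantile normalization and under centring on the 75th percentile. Without 1 array, the number lower ranged from 4 to 5 of 5 for Hoxa, 4 to 5 of 5 for Hoxb and 1 to 3 of 6 for Hoxc. Genes of a cluster lie side by side and several overlap, so they are not independent of each other.

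In culture the tested genes of cluster A had values below 0 and those of the other clusters values above 0. All 6 Hoxa genes tested were lower on RhoA-KO arrays (median -0.17), and all 5 Hoxb (median 0.26), 4 Hoxc (median 0.19) and 2 Hoxd genes (median 0.84, from 0.01 for Hoxd8 to 1.68 for Hoxd13) were higher. The Hoxa direction was not stable: 5 of 6 were lower under quantile normalization, 4 of 6 under centring on the 75th percentile, and 3 to 6 of 6 without 1 array, with 3 of 6 when Wildtype replicate 2 was left out. Hoxb genes kept 5 of 5 higher in all these fits. At an unadjusted limma p under 0.05 there were 2 of 23 probe sets, 1 of Hoxc5 and 1 of Hoxb4, both higher, against 15.6% of all (7.16% higher and 8.49% lower), which is no more than the background. Groups did not overlap for 5 of 23, 2 of Hoxc5 and 3 of Hoxc6, all higher, against 22.3% of all probe sets (10.1% higher). The log2 difference was below 0 for 7 of 23 probe sets, against 52.8% of all, and its median was 0.13, against -0.01 over all.

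Markers of other cell types and of differentiation also differed between the arrays of the genotypes, and their part in the Hox values was not tested. In culture 2 of 7 suprabasal markers, Dsc1 and Ivl, passed the limma test, against 0.273% of all probe sets. Their log2 differences were 2.51 (SE 0.21, adjusted p = 0.0358) and 2.07 (SE 0.21, adjusted p = 0.0444). All 7 had log2 differences above 0, while 52.8% of all probe sets tested in culture were below 0. Krt1 overlapped near the floor, at 18.7, 4.30 and 4.53 on Wildtype and 26.7, 8.23 and 5.13 on RhoA-KO arrays. Of 5 melanocyte markers tested in culture 0 passed (smallest adjusted p 0.258) and 4 were higher, with the 7 markers of the list summing to 397 to 616 on Wildtype and 564 to 1456 on RhoA-KO arrays. Of 3 fibroblast and dermal markers tested in culture 0 passed (smallest adjusted p 0.0999) and all 3 were higher, with the 12 markers of the list summing to 118 to 158 on Wildtype and 244 to 435 on RhoA-KO arrays, while Dcn was at the floor. In fresh cells 0 of 9 Langerhans and myeloid cell markers passed (smallest adjusted p 0.349). On arrays labelled RhoA-KO 9 of 9 were lower, against 50.1% of all probe sets tested. Their summed intensities were 18420 to 23227 on Wildtype and 7342 to 15349 on arrays labelled RhoA-KO. Of 5 fibroblast and dermal markers tested in fresh cells 0 passed (smallest adjusted p 0.153), 2 were lower and 3 higher, with sums of 1965 to 2197 on Wildtype and 2401 to 2754 on arrays labelled RhoA-KO. Vim gave most of these fresh sums, and Dcn was high on RhoA-KO replicate 2 alone. In RNA of mixed cells, fewer cells of a type and less RNA per cell cannot be told apart.

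**Figure D2:**
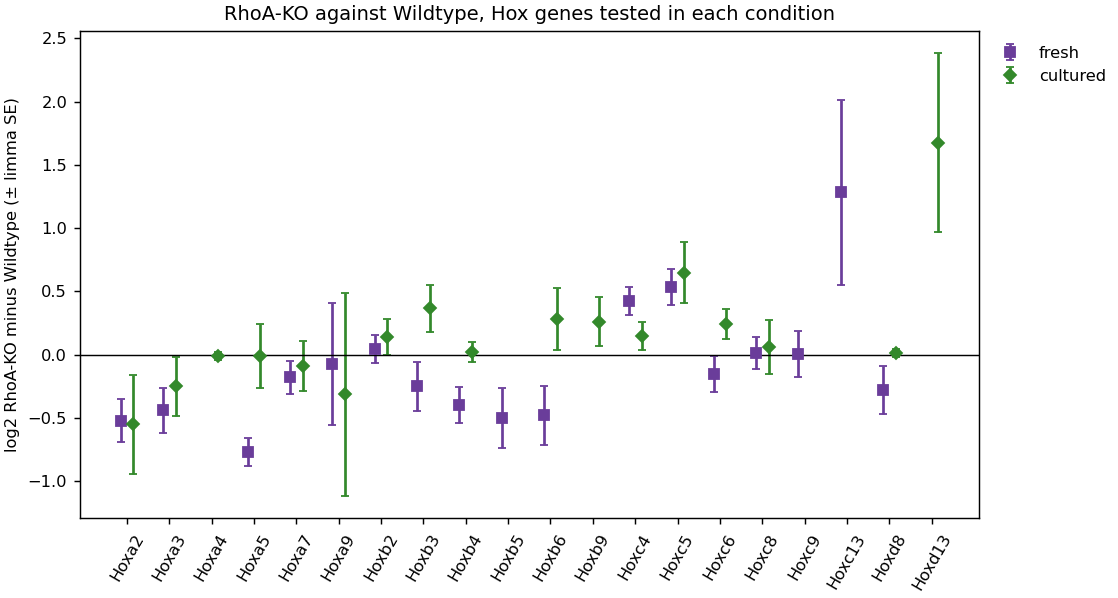
Log2 difference, RhoA-KO minus Wildtype, for each Hox gene tested in fresh (squares, 2 against 2 arrays) or cultured cells (diamonds, 3 against 3 arrays), with limma's standard error as bars. Fresh Hoxa and most Hoxb genes lie below 0 and most Hoxc genes at or above it, Hoxc13 and Hoxd13 have the longest bars together with cultured Hoxa9, and none passed the adjusted threshold.

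Cluster A, on chromosome 6, was represented by 9 genes. Hoxa2 patterns the hindbrain and the second pharyngeal arch. Its fresh intensities were 109 and 104 on Wildtype and 83.8 and 65.6 on arrays labelled RhoA-KO. The labelled RhoA-KO values were both lower, a log2 difference of -0.52 (SE 0.17), which was -0.34 without RhoA-KO replicate 2. In culture Hoxa2 was 27.0, 10.3 and 9.90 on Wildtype and 9.24, 9.63 and 9.94 on RhoA-KO arrays, so that 1 Wildtype array stood above the other 5, which lay near the floor.

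Hoxa3 is needed for thymus and parathyroid, and its span overlaps those of Hoxa4, Hoxa5 and Hoxa6. The probe set 1427433_s_at read 146 and 156 on fresh Wildtype and 127 and 97.7 on fresh arrays labelled RhoA-KO. The second probe set above the median, 1452421_at, read 97.9 and 106 on Wildtype and 72.0 and 80.2 on RhoA-KO arrays. In both the RhoA-KO arrays were the lower ones, by log2 differences of -0.44 (SE 0.18) and -0.42 (SE 0.15). In culture 1427433_s_at read 33.4, 54.3 and 60.5 on Wildtype and 38.4, 40.3 and 42.1 on RhoA-KO arrays, with the RhoA-KO values inside the Wildtype range, while 1452421_at was just below the array median on all 6. The other 2 Hoxa3 probe sets were below the median on all 10 arrays.

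Hoxa4, a neighbour of Hoxa5, was below the median in fresh cells, at 54.5 and 46.8 on Wildtype and 37.6 and 34.4 on RhoA-KO arrays, and was not tested there. Its cultured values of 8.42, 8.53 and 8.41 on Wildtype and 8.41, 8.30 and 8.45 on RhoA-KO arrays were all at the floor and overlapped. Hoxa5 patterns the neck and upper trunk skeleton and is needed in lung development. Its probe set 1448926_at read 1242 and 1083 on fresh Wildtype and 694 and 668 on fresh arrays labelled RhoA-KO, and 1443803_x_at read 531 and 591 on Wildtype and 301 and 364 on RhoA-KO. Both RhoA-KO arrays were well below both Wildtype arrays on each probe set, a Wildtype level 1.70 and 1.69 times that of RhoA-KO. The log2 differences were -0.77 (SE 0.11) and -0.76 (SE 0.15), and the adjusted p were 0.242 and 0.274. In culture 1448926_at read 288, 485 and 412 on Wildtype and 336, 495 and 339 on RhoA-KO arrays, with overlapping groups and a log2 difference of -0.01 (SE 0.25).

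Hoxa7, which has been linked to the control of keratinocyte differentiation, read 793 and 676 on fresh Wildtype and 620.2 and 674 on fresh arrays labelled RhoA-KO. The groups were next to each other without overlap, at a log2 difference of -0.18 (SE 0.13). Its cultured values were 202, 256 and 196 on Wildtype and 191, 258 and 171 on RhoA-KO arrays, which overlapped. Hoxa9, known for its role in blood progenitors, varied more between replicates than between genotypes. The probe set 1455626_at read 316 and 319.6 on fresh Wildtype, 177 and 513 on fresh RhoA-KO, 80.0, 477 and 553 on cultured Wildtype and 139.8, 230.0 and 342 on cultured RhoA-KO arrays. The 2 fresh arrays labelled RhoA-KO lay on opposite sides of Wildtype, and the lowest cultured Wildtype array was below all cultured RhoA-KO arrays. The second Hoxa9 probe set, 1421579_at, was above the median in fresh cells (103 and 119 on Wildtype, 95.6 and 131 on RhoA-KO arrays) but at the floor in culture, between 3.87 and 4.27, so the 2 Hoxa9 probe sets disagree there. Hoxa10, Hoxa11 and Hoxa13 were below the median on all 10 arrays.

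**Figure D3:**
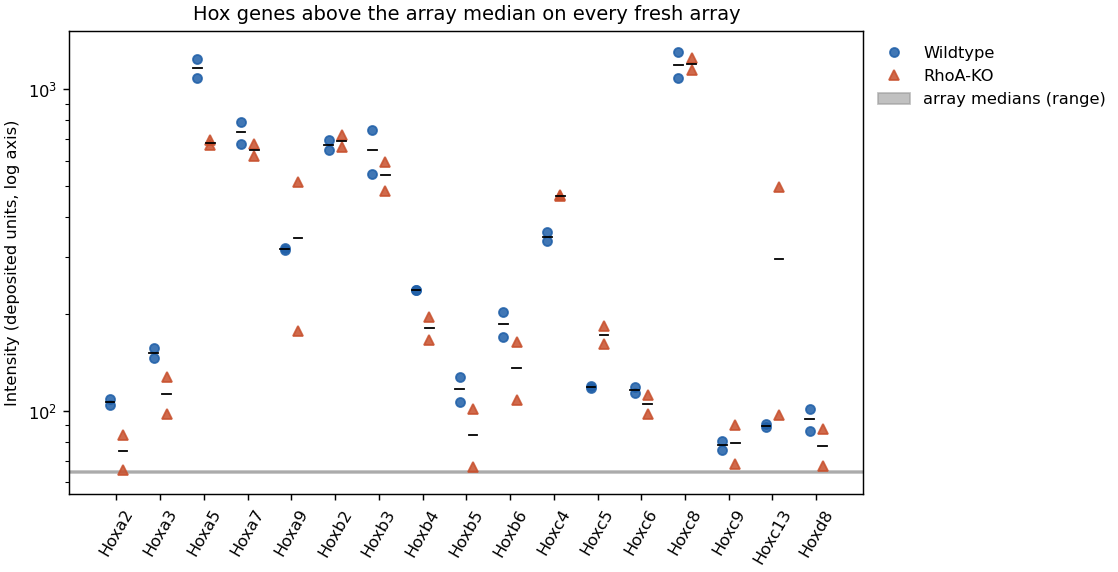
Deposited intensity (log axis) on each of the 4 fresh arrays for the 17 Hox genes above the array median on all of them, with Wildtype as circles, RhoA-KO as triangles, group means as short lines and the range of array medians as a grey band. The triangles lie below the circles for Hoxa2, Hoxa3, Hoxa5, Hoxb4, Hoxb5 and Hoxb6 and, narrowly, for Hoxa7 and Hoxc6. They lie above them for Hoxc4, Hoxc5 and Hoxc13, and for Hoxc13 a single RhoA-KO array stands apart.

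Cluster B, on chromosome 11, was represented by 9 genes. Hoxb2, a hindbrain patterning gene, read 645 and 695 on fresh Wildtype and 662 and 719 on fresh arrays labelled RhoA-KO. Its cultured intensities were 63.0, 81.8 and 81.1 on Wildtype and 89.4, 78.0 and 80.0 on RhoA-KO arrays. Groups overlapped in both conditions. Hoxb3, whose span overlaps that of Hoxb4, read 547 and 745 on fresh Wildtype and 484 and 596 on fresh arrays labelled RhoA-KO. In culture it read 125, 163 and 182 on Wildtype and 220.2, 212 and 171 on RhoA-KO arrays. Again the groups overlapped, with log2 differences of -0.25 (SE 0.19) in fresh cells and 0.37 (SE 0.18) in culture. The second Hoxb3 probe set, 1427605_at, was above the median in fresh cells and below it on all cultured arrays.

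Hoxb4 is known for supporting the renewal of blood stem cells. Its probe set 1460379_at read 238 and 237 on fresh Wildtype and 166 and 195 on fresh arrays labelled RhoA-KO. Both RhoA-KO values were lower, a log2 difference of -0.40 (SE 0.14) with an adjusted p of 0.351. In culture the same probe set read 46.9, 49.6 and 46.4 on Wildtype and 47.4, 49.8 and 48.0 on RhoA-KO arrays, with overlapping groups of little spread. The second probe set, 1451761_at, read 103 and 103 on fresh Wildtype and 83.6 and 94.2 on fresh arrays labelled RhoA-KO, also without overlap. In culture, near the floor, it read 5.56, 6.93 and 6.68 on Wildtype and 8.37, 8.38 and 6.86 on RhoA-KO arrays. The overlap was 1 array, the log2 difference was 0.30 (SE 0.12), and RhoA-KO replicates 1 and 2 alone were above the median.

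Hoxb5 and Hoxb6 are neighbours that both overlap the antisense gene Hoxb5os. Fresh Hoxb5 intensities were 106 and 127 on Wildtype and 66.9 and 101 on RhoA-KO arrays. Fresh Hoxb6 intensities were 169.6 and 203 on Wildtype and 108 and 163 on RhoA-KO arrays. For both genes the RhoA-KO arrays were lower without overlap, but replicate 1 was well below replicate 2, and the log2 differences of -0.50 (SE 0.24) and -0.48 (SE 0.23) had unadjusted limma p of 0.0861 and 0.0925. In culture Hoxb5 was at the floor (5.45 to 6.07), while Hoxb6 read 58.0, 103 and 102 on Wildtype and 102, 108 and 99.0 on RhoA-KO arrays. A single Wildtype array set the cultured Hoxb6 difference, the other 5 lying close together. Hoxb9, which helps pattern the ribs, read 63.6 and 74.8 on fresh Wildtype and 50.8 and 63.2 on fresh arrays labelled RhoA-KO, near the array median. In culture it read 17.4, 25.1 and 28.7 on Wildtype and 26.3, 27.1 and 30.2 on RhoA-KO arrays, above the median on every array, with overlapping groups. Hoxb1, Hoxb7 and Hoxb13 were below the median on all 10 arrays.

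**Figure D4:**
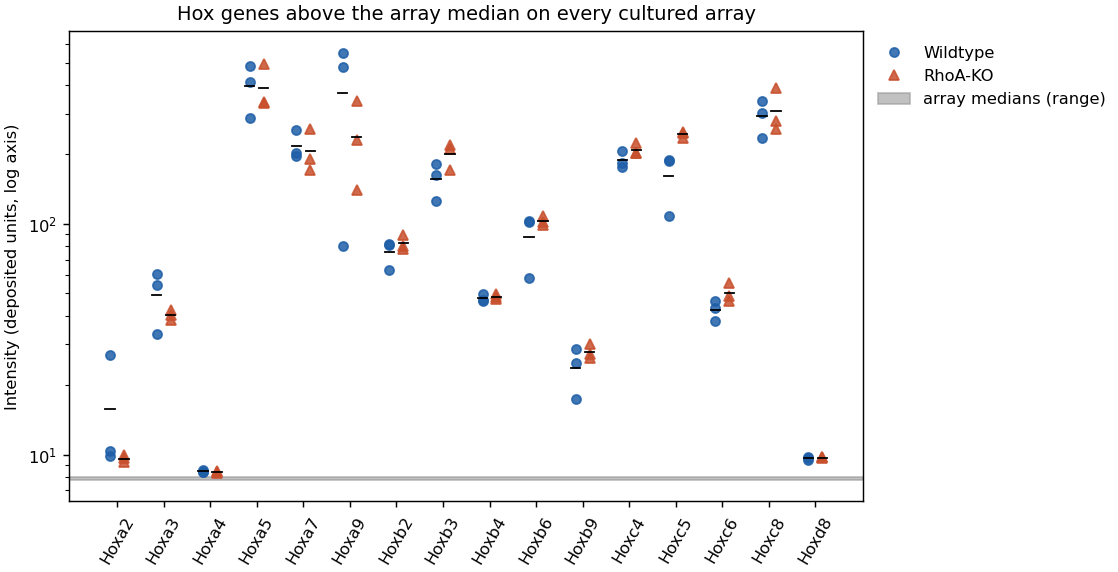
Deposited intensity (log axis) on each of the 6 cultured arrays for the 16 Hox genes above the array median on all of them, with symbols as in the plot of fresh arrays. Hoxc5 and Hoxc6 show all 3 RhoA-KO arrays above all 3 Wildtype arrays, Hoxa4 and Hoxd8 sit on the floor, and several genes have 1 Wildtype array well below the others.

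Cluster C, on chromosome 15, was represented by 7 genes. Hoxc4 and Hoxc5 pattern the neck and upper trunk. Fresh Hoxc4 read 358 and 337 on Wildtype and 469 and 464 on arrays labelled RhoA-KO. Both RhoA-KO values were higher, and the replicates of each group lay close together, a log2 difference of 0.43 (SE 0.11) with an adjusted p of 0.303. In culture Hoxc4 read 184, 207 and 177 on Wildtype and 223, 203 and 203 on RhoA-KO arrays, with 1 Wildtype array within the RhoA-KO range and a log2 difference of 0.15 (SE 0.11).

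Hoxc5 was the gene that was higher on RhoA-KO arrays without overlap in both conditions. Its probe set 1439885_at read 119.8 and 118 on fresh Wildtype and 184 and 161 on fresh arrays labelled RhoA-KO. In culture it read 188, 189 and 108 on Wildtype and 236, 251 and 248 on RhoA-KO arrays. The log2 differences were 0.53 (SE 0.14) in fresh cells (adjusted p = 0.303) and 0.65 (SE 0.24) in culture (adjusted p = 0.284), and neither passed. The cultured difference rested in part on Wildtype replicate 3, which was far below the other Wildtype arrays, and it was 0.38 without that array. The probe set 1450832_at gave the same order in culture (38.6, 42.5 and 20.2 on Wildtype, 46.2, 49.3 and 43.4 on RhoA-KO arrays), with the same low Wildtype array, but overlapped in fresh cells below the median. The probe set 1456301_at read 64.9 and 65.3 on fresh Wildtype and 79.0 and 78.9 on fresh arrays labelled RhoA-KO, without overlap, and was at the floor in culture.

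Hoxc6, active in the thoracic region of the embryo, had differences of opposite sign in the 2 conditions on all 3 probe sets. On 1427454_at it read 114 and 119 on fresh Wildtype and 112 and 97.7 on fresh arrays labelled RhoA-KO, and 37.8, 43.2 and 46.4 on cultured Wildtype and 48.8, 46.5 and 55.2 on cultured RhoA-KO arrays. RhoA-KO arrays were lower in fresh cells and higher in culture, each time without overlap, with log2 differences of -0.15 (SE 0.14) and 0.24 (SE 0.12). Neither was past the adjusted threshold, and in culture the groups nearly touched. Without fresh RhoA-KO replicate 2 the fresh log2 difference was -0.05 on 1427454_at and -0.07 on 1427361_at (from -0.24), and on 1427362_x_at it was -0.05 without fresh Wildtype replicate 2 (from -0.14). Without cultured Wildtype replicate 1 the cultured value was 0.16 on 1427454_at and 0.26 on 1427362_x_at (from 0.48).

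Hoxc8 is a thoracic gene that also marks trunk fibroblasts. It read 1084 and 1303 on fresh Wildtype, 1150.0 and 1248 on fresh RhoA-KO, 342, 304 and 236 on cultured Wildtype and 389, 279 and 257 on cultured RhoA-KO arrays. Groups overlapped in both conditions and the log2 differences were 0.01 (SE 0.13) and 0.06 (SE 0.22). Hoxc9, a thoracic gene too, read 75.7 and 80.6 on fresh Wildtype and 68.3 and 90.1 on fresh arrays labelled RhoA-KO, which overlapped, and 4.44 to 4.53 in culture, at the floor. Hoxc10, known for the lumbar region and hind limb, was below the median on all 10 arrays.

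Cluster D, on chromosome 2, was represented by 8 genes, of which Hoxd8 alone met the rule. Hoxd8 read 86.8 and 101 on fresh Wildtype and 67.6 and 88.0 on fresh arrays labelled RhoA-KO, and 9.45, 9.72 and 9.67 on cultured Wildtype and 9.71, 9.69 and 9.71 on cultured RhoA-KO arrays. The groups overlapped in both, and the cultured values were close to the floor. Hoxd13, which shapes digits and external genitalia, had the largest log2 difference of the Hox genes tested in culture. On probe set 1440626_at it read 5.57, 10.9 and 7.86 on Wildtype and 8.48, 33.3 and 55.0 on RhoA-KO arrays. RhoA-KO replicates 2 and 3 were above the rest and replicate 1 lay among the Wildtype arrays, so the difference of 1.68 (SE 0.70) had an unadjusted limma p of 0.0556. Melanocyte markers were likewise high on RhoA-KO replicates 2 and 3: Tyrp1, a pigment enzyme, read 97.6, 232 and 152 on Wildtype and 236, 410.5 and 719 on RhoA-KO arrays, and their part in the Hoxd13 value was not tested. The other Hoxd13 probe set, 1422239_at, read 6.12 to 6.20 on all cultured arrays and so did not share it, and 1440626_at was below the median on all fresh arrays. Hoxd1, Hoxd3, Hoxd9, Hoxd10, Hoxd11 and Hoxd12 were below the median on all 10 arrays.

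Hoxc13, the Hox gene that drives hair keratin genes, stood apart on a single array. It read 91.1 and 88.9 on fresh Wildtype arrays, 97.0 and 496 on fresh RhoA-KO replicates 1 and 2, and 5.58 to 7.67 on the cultured arrays, below their medians. Fresh RhoA-KO replicate 1 was thus close to Wildtype and replicate 2 several times higher. The log2 difference was 1.28 (SE 0.73) with an adjusted p of 0.51, and it was 0.11 without RhoA-KO replicate 2 and 2.46 without RhoA-KO replicate 1. Of 19 markers of the hair matrix, hair shaft and inner root sheath, 18 were also highest on RhoA-KO replicate 2, and their summed intensity was 6515 to 7745 on Wildtype arrays, 5522 on RhoA-KO replicate 1 and 59522 on RhoA-KO replicate 2. Gata3 was lowest there. Of 6 bulge and outer root sheath markers, 4 had log2 differences below 0 and 2 above. Lgr5 and Cd34 were lowest on RhoA-KO replicate 2, and Krt75 and Krt17 highest. Their list summed to 10493 and 10244 on Wildtype and 10077 and 10794 on RhoA-KO arrays, mostly from Krt17. Melanocyte markers, 6 of 7 highest on RhoA-KO replicate 2, summed to 1248 to 1342 on Wildtype arrays and to 1535 and 4940 on the RhoA-KO arrays. The part of these other transcripts in the Hoxc13 value was not tested. Hoxa5 did not share the pattern, since both RhoA-KO arrays were low, and without RhoA-KO replicate 2 its log2 difference on 1448926_at was -0.74.

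**Figure D5:**
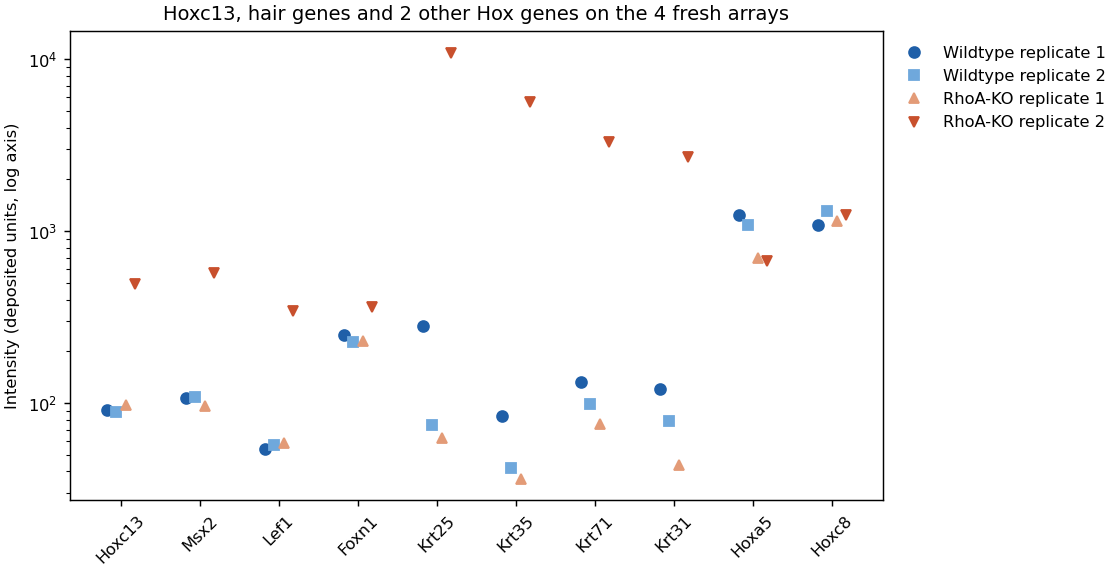
Deposited intensity (log axis) on each of the 4 fresh arrays. Shown are Hoxc13, 7 genes of the hair matrix, hair shaft and inner root sheath list and 2 further Hox genes. The genes were chosen after their values were seen. RhoA-KO replicate 2 is the highest array for Hoxc13 and these 7 genes, while Gata3 of the same list, not shown, was lowest there. Hoxa5 is low on both RhoA-KO arrays and Hoxc8 lies close together on all 4.

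The genotype difference in culture was compared with that in fresh cells for the 18 Hox probe sets tested in both. None passed at an adjusted p of 0.05 in the test made from both limma fits, against 0.879% of 18773 probe sets, and 7 had an unadjusted p under 0.05 (2 of Hoxa5, 1 of Hoxb3, 2 of Hoxb4, 1 of Hoxb6 and 1 of Hoxc6), against 17.8% of all. All 7 had a more negative value in fresh than in cultured cells, and the share of all probe sets in that direction was not counted. They were read from the same arrays, and probe sets of a gene or genes of a cluster are not independent of each other. For Hoxa5 the difference between the log2 differences was 0.76 (SE 0.27) on 1448926_at and 0.60 (SE 0.24) on 1443803_x_at, with adjusted p of 0.211 and 0.239. For Hoxb6 it was 0.76 (SE 0.34) and for Hoxb3 0.62 (SE 0.27).

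Culture and fresh cells were compared by percentile rank within each array, where 100 is the brightest probe set, with an exact permutation test (2-sided, smallest p 0.00476). At an adjusted p of 0.05, 39 of 48 Hox probe sets differed, against 88.9% of all probe sets, so that the count carries no information on Hox genes, and the separate scaling of the conditions and culture itself cannot be told apart. Hoxc9 went from a mean percentile of 54.0 in fresh to 14.5 in cultured cells, Hoxb5 from 57.8 to 35.9, and Hoxc13 from 63.1 to 42.1. The cultured values of these genes, and of Hoxc5 1456301_at and Hoxa9 1421579_at below, were near the floor. There a percentile only orders floor values, so the sizes of these falls cannot be read. Hoxb2 went from 85.1 to 65.2 and Hoxc8 from 91.0 to 74.1, and both were above the median in both. Hoxb9 went the other way, from 49.1 to 59.8. The Hoxc5 probe sets disagreed, 1439885_at going from 63.8 to 71.0 and 1456301_at from 52.2 to 36.9. On the probe set standing for the gene, Hoxa2, Hoxa3, Hoxb6 and Hoxd8 kept their rank within 2 percentile points. Their adjusted p in the permutation test were 0.274 to 0.938. Cultured Hoxd8 and, on all but 1 array, cultured Hoxa2 were near the floor, so their kept rank cannot be read. Other probe sets of these genes did not all keep their rank. Hoxd8 1433638_s_at went from 21.3 to 51.4 and Hoxa3 1452421_at from 56.1 to 49.6, both near the floor in culture. Hoxa9 stayed close on 1455626_at, but went from 60.1 to 7.50 on 1421579_at.

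Genes that work with or upon Hox genes were above the array median to differing extents, and none passed the limma test between genotypes. Over all genes, each by its brightest probe set, 58.5% were above the median on every fresh and 58.8% on every cultured array. Of 9 TALE cofactors (the Pbx, Meis and Prep genes) 8 were on the array, 6 above the median in fresh and 7 in cultured cells, and 0 of 7 tested passed the limma test in either. The smallest p in culture were those of Meis2 (0.65, SE 0.21, adjusted p = 0.239) and Pknox1 (-0.33, SE 0.12, adjusted p = 0.265), given as log2 differences, and in fresh cells those of Meis3 (-0.41, SE 0.15, adjusted p = 0.363) and Pknox1 (-0.13, SE 0.10, adjusted p = 0.622). Meis3 was above the fresh median on the 2 Wildtype arrays alone, so it was tested there only through the group where it was high. Median log2 differences over the list were -0.10 in culture and -0.15 in fresh cells, against -0.01 and 0.00 over all probe sets. Retinoic acid and Cdx factors act upstream of Hox genes. Of 13 upstream regulators on the array 6 were above the median in each condition, a share below that of all genes. In each condition 6 were tested and 0 passed. Egr2, which drives Hox genes in the hindbrain, had a log2 difference of -2.42 (SE 0.32, adjusted p = 0.0669) in culture and -0.39 (SE 0.08, adjusted p = 0.274) in fresh cells. Cyp26b1, which breaks down retinoic acid, had -0.63 in both, with adjusted p of 0.241 and 0.298.

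Polycomb proteins keep Hox genes silent and Trithorax proteins keep them active. Of 17 Polycomb genes on the array 16 were above the median in each condition, against the 58.5% and 58.8% of all genes given above. Among them 0 passed, with median log2 differences of -0.02 in culture and -0.09 in fresh cells. Those with the smallest p were Pcgf2 (-1.72, adjusted p = 0.117) and Suz12 (-0.37, adjusted p = 0.154) in culture, and Phc1 (0.74, adjusted p = 0.365) and Cbx7 (-0.30, adjusted p = 0.375) in fresh cells. Phc1 was above the fresh median on the 2 arrays labelled RhoA-KO alone, so it too was tested there only through the group where it was high. All 9 genes of the list of Trithorax factors and demethylases were above the median in both conditions, and 0 passed, with medians of -0.20 and -0.18. Dot1l (-0.47, adjusted p = 0.136) and Men1 (-0.41, adjusted p = 0.182) had the smallest p in culture, and Ash2l (0.35, adjusted p = 0.32) and Kmt2d (-0.25, adjusted p = 0.421) in fresh cells. Neighbours of the clusters, 13 of 16 on the array, gave 0 calls as well, with Cbx5 (-0.76, adjusted p = 0.151) and Calcoco1 (0.09, adjusted p = 0.36) first in culture and Mtx2 (0.28, adjusted p = 0.374) and Skap1 (0.32, adjusted p = 0.458) in fresh cells. Of the other genes known to mark body position in skin, such as Tbx15, Tbx5 and Pitx1, 8 of 10 were on the array and 0 were above the median on every array of either condition, so none was tested. At an unadjusted p under 0.05 the 5 tested lists held 9 lower and 2 higher of 47 members in culture and 4 lower and 3 higher of 49 in fresh cells, against the 15.6% and 12.9% of all probe sets given above.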

How the data were processed

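Total RNA was measured on Affymetrix Mouse Genome 430 2.0 arrays. The authors deposited 1 linear intensity per probe set and array, and the submitters' processing notes name MAS5. How MAS5 was scaled, and its version, are not stated there. Symbols came from the platform annotation. Intensities were taken to log2 with no offset, and probe sets above the array's median on at least 2 arrays of a condition were kept. RhoA-KO was compared with Wildtype in fresh and in cultured cells separately by limma 3.58.1 in R 4.3.3 (lmFit, eBayes with trend, 2-sided), with Benjamini-Hochberg adjustment over all probe sets kept and a threshold of 0.05. Differences between conditions combined both fits' standard errors, with the t distribution of SciPy 1.17.1. Ranks were compared by exact permutation of the array labels with NumPy 2.4.6. The members and lists were chosen with earlier results of these data known. Values on every array are given for Hox genes above the median on every array of a condition, for probe sets with an unadjusted p under 0.05 without overlap, and for Hoxc13. Hoxd13 and further probe sets of the named genes, such as Hoxb4 1451761_at, were added after their values were seen. Of the other lists, the 2 members with the smallest p in each condition are named. No 2 arrays were identical. The 2 or 3 arrays per group limit the precision: in a simulation where 200 probe sets were altered, 55% of 2-fold and 84% of 4-fold changes were recovered in culture (6 false calls) and 32% and 91% in fresh cells (2 false calls).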

Additional observations from a re-analysis of the deposited data

Results flagged for a closer look

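All 3 Hoxc6 probe sets were higher on every cultured RhoA-KO array and lower on every fresh array labelled RhoA-KO than on the Wildtype arrays of the same condition. Over all probe sets tested, 10.1% were higher without overlap in culture and 23.5% lower without overlap in fresh cells. The log2 difference in culture minus that in fresh cells was 0.36 for 1427361_at, 0.62 for 1427362_x_at and 0.39 for 1427454_at. The difference itself was tested from both limma fits and did not pass, with adjusted p of 0.337, 0.236 and 0.303. The 3 probe sets read the same gene and are not independent of each other.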

How the results depend on the processing

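The counts of Hox probe sets past the adjusted threshold, 0 in each condition, stayed at 0 under the alternatives run other than those named here. In culture 2 passed when the threshold was an unadjusted p of 0.05, and leaving out 1 array gave 0. In fresh cells an unadjusted p of 0.05 gave 7, 1 fit over all 10 arrays gave 7 (2 of Hoxc5 and 1 each of Hoxa3, Hoxa4, Hoxa5, Hoxb4 and Hoxc4), and leaving out 1 array gave 0 to 2. For the difference between conditions, 1 fit over all 10 arrays gave 1, a Hoxa3 probe set. The count of 16 Hox genes above the median in culture became 10 when all probe sets of a gene had to be above it, and 0 at the 75th percentile. The count of 17 in fresh cells became 6 at the 75th percentile and 8 at 2 times the median (an alternative chosen after seeing the data). Of the rank differences, 39 became 23 when ranks were taken among probe sets above the median in 1 condition. The causes were not tested. Over all probe sets, 62 calls in culture became 2 without the filter, 7 without the trend, 128 with centring on the 75th percentile, 299 with array weights, 143 in 1 fit and 0 to 95 without 1 array, and the 0 calls in fresh cells became 1438 in 1 fit, 945 without RhoA-KO replicate 1 and 11 without RhoA-KO replicate 2. With the replicate number as a block, 0 Hox probe sets passed in either condition and all calls were 17 in culture and 0 in fresh cells. The numbers share no source in the labels, and deviations of same-numbered arrays correlated at 0.322, 0.0809 and 0.249 in culture and at -0.0548 in fresh cells, so the arrays were not treated as paired. From 53.9% to 54.3% of cultured values lie below 10, near a floor, which limits what can be seen of weakly expressed Hox genes there.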

Other observations

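Some probe sets of Hox clusters fell outside the rule for members. A probe set annotated to both Hoxb8 and Hoxb7, 1452493_s_at, read 157 and 190.3 on fresh Wildtype arrays and 77.9 and 150.4 on fresh arrays labelled RhoA-KO, above the median on all 4, and 4.32 to 4.39 on the cultured arrays. It did not pass the limma test in fresh cells, with a log2 difference of -0.68 (adjusted p = 0.452). The antisense gene Hoxb5os read 171 and 207 on fresh Wildtype arrays and 146 and 511 on fresh arrays labelled RhoA-KO. Its highest value was thus on RhoA-KO replicate 2, the array that was also highest for Hoxc13. A probe set annotated to both Hoxd4 and Hoxd3 read 69.7 and 81.3 on fresh Wildtype arrays and 76.6 and 78.2 on fresh arrays labelled RhoA-KO, and the arrays overlapped. Probe sets of Hoxa11os and Hoxd3os1 were below the median on every array of both conditions.

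Among the cultured arrays, Wildtype replicate 1 was the lowest of the 6 for 9 of the 16 Hox genes above the median there. Among the fresh arrays, RhoA-KO replicate 1 was the lowest of the 4 for 8 of the 17 genes, and RhoA-KO replicate 2 for 4.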
